A study of Mus musculus with 4 samples.

Results

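The circadian clock genes of 3T3-L1 cells were examined in 4 stable lines, each sequenced once on differentiation day 8. The set held 10 genes of the 13085 in the files: Arntl, Clock, Per1, Per2, Cry1, Cry2, Nr1d1, Nr1d2, Dbp and Tef. They were chosen by name, as the rows whose RefSeq accessions map to these symbols, and all 10 had at least 1 FPKM in every library. FPKM is a fragment count scaled to transcript length and library size, so levels are per length and can be compared between genes. 3T3-L1 is a murine preadipocyte line that turns into fat-storing cells under hormones. FLAG cells carry the empty FLAG vector and FLAG-CACUL1 cells overexpress CACUL1, a cullin domain protein named for its association with CDK2, from the same vector. The sh-Luc cells carry a hairpin directed at luciferase and the sh-CACUL1 cells carry one directed at CACUL1. All 4 lines were induced with rosiglitazone at 5 µM, IBMX at 0.5 mM, dexamethasone at 1 µg/mL and insulin at 5 µg/mL, in medium with 10% serum, and then kept on insulin medium that was renewed every 2 days. The FLAG lines had been selected with G418 and the hairpin lines with hygromycin B, so the vector and the drug cannot be told apart between these pairs. Whether a line was a pool or a single clone, and the hour at which cells were harvested, are not given in the sources used here. With 1 library per line no difference has a replicate check, and no p-value is given.

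The circadian clock is a transcriptional feedback loop. ARNTL (BMAL1) and CLOCK form a dimer that binds E-box sequences and switches on the Per and Cry genes, whose proteins return to block the dimer. The same dimer drives Nr1d1 and Nr1d2, which encode the REV-ERB repressors of Arntl, and Dbp, which with Tef encodes activators that bind D-box sequences. In cultured fibroblasts and adipocytes the loop runs in each cell and is set by dexamethasone, cAMP, insulin and medium changes, so a single harvest samples the genes at one phase or at a mixture of phases.

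Depth and marker levels differed between the libraries. Fragment counts were not used here, and steps in the low FPKM values put sh-Luc at about 24000000 fragments, sh-CACUL1 at 15100000, FLAG at 14500000 and FLAG-CACUL1 at 14300000, all estimates. At these depths the members rest on an estimated 114 fragments (Dbp in sh-CACUL1) to 2454 fragments (Per1 in sh-Luc). The 95% intervals below are exact intervals on these estimates and cover counting error only, not the variation between cultures. They, and the verdicts drawn from them, are on FPKM without scaling between libraries. Library factors from median-of-ratios scaling ran from 0.844 in sh-CACUL1 to 1.17 in sh-Luc, a difference that the intervals do not cover. Cacul1 itself had 9.61 FPKM in FLAG, 10.2 in sh-Luc, 11.8 in FLAG-CACUL1 and 5.39 in sh-CACUL1. Its log2 difference of FPKM + 1 was 0.27 in FLAG-CACUL1 against FLAG and -0.82 in sh-CACUL1 against sh-Luc, or 0.14 and -0.40 after median-of-ratios scaling. Whether fragments of the introduced insert fall on this row is not given in the sources used here. The lines differed in adipocyte state, and 7 of 8 adipocyte markers were in the files. Their FPKM summed to 7286 in FLAG and 16560 in sh-CACUL1, against 370 in FLAG-CACUL1 and 1331 in sh-Luc. Fabp4 made up most of each of these sums. Each of the 7 was higher in FLAG and sh-CACUL1 than in FLAG-CACUL1 and sh-Luc, but not all kept the order of the sums. Plin1 (158.2 against 113.4 FPKM) and Pparg (70.1 against 61.8) were higher in FLAG than in sh-CACUL1. Retn was higher in FLAG-CACUL1 (1.34) than in sh-Luc (0.192). All 6 preadipocyte and fibroblast markers were in the files, with sums of 4756, 3121, 6646 and 608.1 FPKM in FLAG, sh-Luc, FLAG-CACUL1 and sh-CACUL1. Col1a1 and Col3a1 made up most of each sum, and other markers went otherwise: Dlk1 had 0.220 FPKM in sh-Luc against 21.2 in sh-CACUL1, Thy1 had 0.663 against 34.3, and Pdgfra was lowest in FLAG, at 13.0. Of the markers of macrophages, muscle and endothelium, 2 of 4, 1 of 3 and 1 of 3 were in the files, and their summed levels ran from 1.08 to 16.8, from 1.13 to 8.35 and from 0.0217 to 0.301 FPKM, respectively. The macrophage sum was mostly Cd68, at 16.2 FPKM in FLAG, while Csf1r lay between 0.0172 and 0.607 FPKM. In a bulk library, fewer cells of a type and less RNA per cell cannot be told apart.

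Of the activators, Arntl varied more than Clock. Arntl (chromosome 7, 113207465 to 113314126 on the plus strand of GRCm38) was measured at 7.41 FPKM in FLAG, 9.38 in sh-Luc, 10.4 in FLAG-CACUL1 and 3.72 in sh-CACUL1. It was lowest in sh-CACUL1, and FLAG-CACUL1 and sh-Luc differed by no more than counting error. Its partner Clock (chromosome 5, 76209868 to 76304792, minus strand) had 4.26 FPKM in FLAG, 7.03 in sh-Luc, 5.36 in FLAG-CACUL1 and 6.29 in sh-CACUL1. Clock had the smallest range of the 10 genes on the log2(FPKM + 1) scale, 0.61. Arntl was thus above Clock in FLAG, FLAG-CACUL1 and sh-Luc and below it in sh-CACUL1.

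Of the repressors, Per1 stood apart. Per1 (chromosome 11, 69095217 to 69109960, plus strand), a period gene that dexamethasone and cAMP induce directly, had 23.4 FPKM in FLAG, 22.1 in sh-Luc, 4.94 in FLAG-CACUL1 and 13.8 in sh-CACUL1. Without scaling between libraries both controls were alike within counting error (FLAG 1.06 times sh-Luc, interval 0.992 to 1.13). After median-of-ratios scaling FLAG was above sh-Luc by 0.36 on the log2(FPKM + 1) scale. In FPKM, sh-CACUL1 lay below both controls and FLAG-CACUL1 was far below the other 3. Per2 (chromosome 1, 91415982 to 91459324, minus strand), its paralog, had 5.44 FPKM in FLAG, 2.77 in sh-Luc, 1.67 in FLAG-CACUL1 and 2.03 in sh-CACUL1. Here FLAG was well above the other 3 libraries, and FLAG-CACUL1 and sh-CACUL1 did not differ beyond counting error. The cryptochromes, which block the activator dimer together with the period proteins, followed neither pattern as a pair. Cry1 (chromosome 10, 85131700 to 85185064, minus strand) had 6.10 FPKM in FLAG, 5.32 in sh-Luc, 4.89 in FLAG-CACUL1 and 2.66 in sh-CACUL1, so that sh-CACUL1 was low and neighbours among the other 3 lay within counting error. Cry2 (chromosome 2, 92403646 to 92434043, minus strand) had 15.9 FPKM in FLAG, 8.36 in sh-Luc, 7.12 in FLAG-CACUL1 and 9.22 in sh-CACUL1. FLAG was the high library for Cry2, and sh-CACUL1 and sh-Luc lay within counting error of each other.

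The REV-ERB genes differed from each other. Nr1d1 (chromosome 11, 98767932 to 98775333, minus strand), which encodes REV-ERBα and is induced during adipogenesis, had 35.6 FPKM in FLAG, 12.3 in sh-Luc, 17.5 in FLAG-CACUL1 and 12.7 in sh-CACUL1. Its paralog Nr1d2 (chromosome 14, 18204054 to 18239127, minus strand), which encodes REV-ERBβ, had 4.23 FPKM in FLAG, 3.31 in sh-Luc, 7.69 in FLAG-CACUL1 and 6.05 in sh-CACUL1. Nr1d2 was thus higher in each CACUL1-modified line than in either control. Nr1d1 shares 263 exon bases with Thra on the opposite strand, and Thra was measured at 31.7 to 79.7 FPKM. Strand use in counting is not given in the sources used here, so reads from the shared bases cannot be assigned.

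Of the outputs with a PAR bZIP domain, Dbp varied most among the 10 genes and Tef little. Dbp (chromosome 7, 45705088 to 45710203, plus strand) had 22.5 FPKM in FLAG, 9.31 in sh-Luc, 25.7 in FLAG-CACUL1 and 4.13 in sh-CACUL1, a ratio of 6.22 between the highest and lowest library that no other member reached. It was high in both FLAG lines and low in both hairpin lines. Tef (chromosome 15, 81802421 to 81826863, plus strand) had 11.3 FPKM in FLAG, 16.5 in sh-Luc, 19.0 in FLAG-CACUL1 and 21.6 in sh-CACUL1, highest in the library where Dbp was lowest. Dbp shares 539 exon bases with Sphk2 on the opposite strand, which had 5.16 to 10.9 FPKM. Over all members, 7 of the 30 steps between neighbouring libraries lay within counting error, without scaling between libraries.

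**Figure D1:**
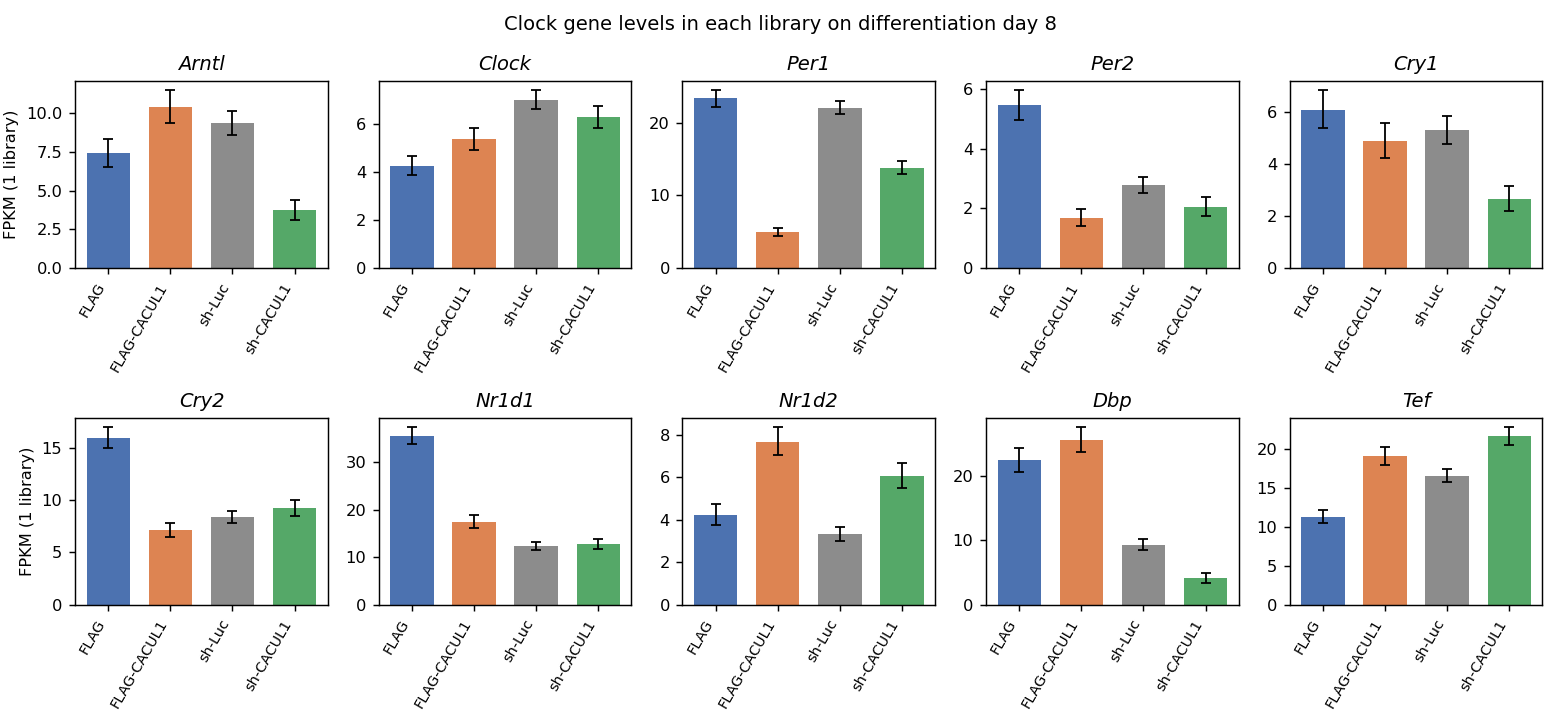
FPKM (vertical axis, from 0) of each of the 10 clock genes in the 4 libraries; bars are single libraries and error bars are exact 95% Poisson intervals on the estimated fragments. Per1 falls to 4.94 FPKM in FLAG-CACUL1 against 23.4 in FLAG and 22.1 in sh-Luc, and Dbp is above 20 FPKM only in the FLAG and FLAG-CACUL1 libraries.

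Promoters were searched for elements through which this loop acts. Those of the 3 members with an E-box, Per1, Cry1 and Tef, and of the related repressor Ciart are shown. Their log2 differences of FPKM + 1 in FLAG-CACUL1 against FLAG were -2.04 (Per1), -0.27 (Cry1), 0.70 (Tef) and -1.62 (Ciart). In sh-CACUL1 against sh-Luc they were -0.64, -0.79, 0.37 and -0.94 in the same order. Whether the motif bears on these changes was not tested. Of 14 other genes of the clock pathway with a promoter sequence, 2 held an E-box, Ciart and Bhlhe41. Windows of RefSeq (GRCm38.p6), from 250 bases before to 50 bases after a start site, were matched for 9 of the 10 members, all but Per2, and gave 14 windows. The E-box CACGTG, which reads the same on both strands, lay in 4 of these 14 windows, from 3 genes, and in 7.15% of all 32851 windows. The D-box TTATGNAA, searched on both strands, lay in 1 member window and in 3.38% of all windows, and the hexamer AGGTCA that REV-ERB and ROR receptors read, also on both strands, lay in 4 member windows and in 16.3% of all windows. Cry2, Nr1d1 and Dbp had no match to any of these motifs in their windows. The motifs do not overlap in the windows shown, and capitals mark them. Per1 (chr11:69098699-69098998, plus strand) has its E-box from base -166, the hexamer (as TGACCT) from -137 and a D-box from -24, counted from the start site. Cry1 (chr10:85185005-85185304, minus strand) has an E-box from -60, Tef (chr15:81802423-81802722, plus strand) has one from -127, and Ciart (chr3:95882179-95882478, minus strand) has E-boxes from -116, -58 and -44. The sequences read 5′ to 3′ on the strand of the gene. A match describes the letters of the window and is no evidence of binding.
Per1: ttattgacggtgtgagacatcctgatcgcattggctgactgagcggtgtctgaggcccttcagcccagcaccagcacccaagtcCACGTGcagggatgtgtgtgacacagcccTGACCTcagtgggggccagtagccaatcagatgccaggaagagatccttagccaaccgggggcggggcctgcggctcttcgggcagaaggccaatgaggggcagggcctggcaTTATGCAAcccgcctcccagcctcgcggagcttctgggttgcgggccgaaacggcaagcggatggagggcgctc
Cry1: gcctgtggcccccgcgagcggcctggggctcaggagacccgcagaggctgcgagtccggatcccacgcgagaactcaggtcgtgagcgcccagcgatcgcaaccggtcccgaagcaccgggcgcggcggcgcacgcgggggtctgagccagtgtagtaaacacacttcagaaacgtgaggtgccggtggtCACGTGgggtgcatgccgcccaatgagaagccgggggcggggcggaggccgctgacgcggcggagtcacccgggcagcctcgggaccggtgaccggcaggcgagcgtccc
Tef: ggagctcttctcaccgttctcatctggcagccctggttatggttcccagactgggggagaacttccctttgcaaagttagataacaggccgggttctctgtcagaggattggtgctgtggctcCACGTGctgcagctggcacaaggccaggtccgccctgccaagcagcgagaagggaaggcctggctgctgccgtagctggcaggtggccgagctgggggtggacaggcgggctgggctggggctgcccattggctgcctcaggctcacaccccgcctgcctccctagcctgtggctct
Ciart: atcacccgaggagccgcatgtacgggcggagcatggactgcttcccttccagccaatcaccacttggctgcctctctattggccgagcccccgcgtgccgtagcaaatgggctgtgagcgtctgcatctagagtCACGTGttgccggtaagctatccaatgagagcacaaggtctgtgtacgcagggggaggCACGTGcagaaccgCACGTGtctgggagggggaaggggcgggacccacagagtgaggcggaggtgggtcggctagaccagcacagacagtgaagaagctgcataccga

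Overexpression was compared with the empty vector to ask how more CACUL1 goes with the state of the clock. Of the repressors, Per1, Per2 and Cry2 fell 2-fold or more in FLAG-CACUL1, and of the other members 0 passed 2-fold. Changes are log2 differences of FPKM + 1, a scale on which low genes appear to change less than they did, and at least 2-fold was counted as called. In all, 3 of the 10 members were called lower against FLAG and 0 higher. Over all 13085 genes 7.22% were lower, 7.51% were higher and 14.7% passed in either direction. Per1 was 4.73-fold lower in FPKM (interval 4.20 to 5.34), a log2 difference of -2.04, and 217 of all genes, Per1 included, were as low or lower. Per2 was 3.25-fold lower (interval 2.69 to 3.97; log2 difference -1.27) and Cry2 2.24-fold lower (interval 1.99 to 2.53; log2 difference -1.06). Just short of the cut-off on that scale stood Nr1d1, at a log2 difference of -0.99 and a fold of 2.04 (interval 1.86 to 2.24). Cry1 had a log2 difference of -0.27. The other 5 members were above FLAG by less than 2-fold: Nr1d2 by 0.73, Tef by 0.70, Arntl by 0.44, Clock by 0.27 and Dbp by 0.18 on the log2 scale. The median over the members was -0.04 and over all genes 0.09.

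Only the fall of Per1 passed 2-fold against both controls. FLAG itself was the highest library for 5 of the 10 members, and for 22.8% of the 9563 genes with at least 1 FPKM in every library. Set against sh-Luc, FLAG-CACUL1 had 3 members past 2-fold, where 9.90% of all genes were, and only Per1 was among the 3 found against FLAG. Per1 had a log2 difference of -1.96 from sh-Luc, close to that from FLAG. Per2 was at -0.50, Cry2 at -0.20 and Nr1d1 at 0.47 against sh-Luc, in the last case with the sign turned. The other members past 2-fold against sh-Luc were Dbp, at 1.37, and Nr1d2, at 1.01, both upward. These comparisons share the FLAG-CACUL1 library and differ in vector and drug.

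**Figure D2:**
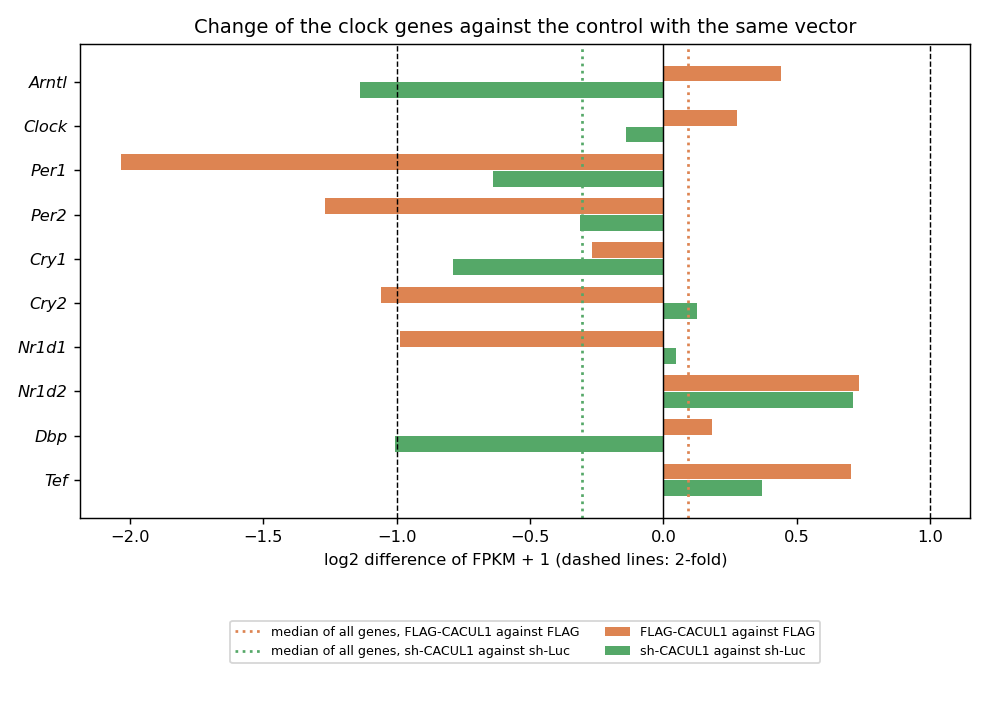
Log2 difference of FPKM + 1 (horizontal axis) of each clock gene between FLAG-CACUL1 and FLAG and between sh-CACUL1 and sh-Luc; dashed lines mark 2-fold and dotted lines the median of all genes in each comparison (0.09 and -0.30). Per1, Per2 and Cry2 pass 2-fold downward in FLAG-CACUL1, and Arntl and Dbp in sh-CACUL1.

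Knockdown was compared with the luciferase hairpin to ask the converse question. In sh-CACUL1 cells 2 of the 10 members were at least 2-fold lower than in sh-Luc and 0 were higher, where 16.4% of all genes were lower, 4.94% were higher and 21.3% passed in either direction. The members' share was thus close to that of all genes. Arntl was 2.52-fold lower in FPKM (interval 2.10 to 3.05; log2 difference -1.14) and Dbp 2.25-fold lower (interval 1.83 to 2.81; log2 difference -1.01). Cry1 was at -0.79, Per1 at -0.64, Per2 at -0.31 and Clock at -0.14, while Nr1d2 was at 0.71, Tef at 0.37, Cry2 at 0.13 and Nr1d1 at 0.05 on the log2 scale. Without scaling between libraries, the Cry2 and Nr1d1 values lay within counting error of no change.

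The median of all genes was -0.30 in this comparison, and the calls changed with the scaling between libraries. After median-of-ratios scaling, which centres the median of all genes near 0, Arntl was at -0.73 and Dbp at -0.60, under 2-fold, and Nr1d2 was at 1.10, past it. Per1 stood at -0.19 and Cry1 at -0.41, and Per2 (0.02) and Clock (0.27) turned positive. Cry2 rose to 0.55 and Nr1d1 to 0.49, so their lack of change held only without scaling. Nr1d2 and Tef (0.82 after scaling) were above sh-Luc with and without scaling. Against FLAG, the other control, sh-CACUL1 had 3 members past 2-fold, all downward, with 22.9% of all genes past it. Dbp was the only member called against each control, at -2.20 against FLAG. Nr1d1 at -1.41 and Per2 at -1.09 were the others, while Arntl was at -0.83.

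**Figure D3:**
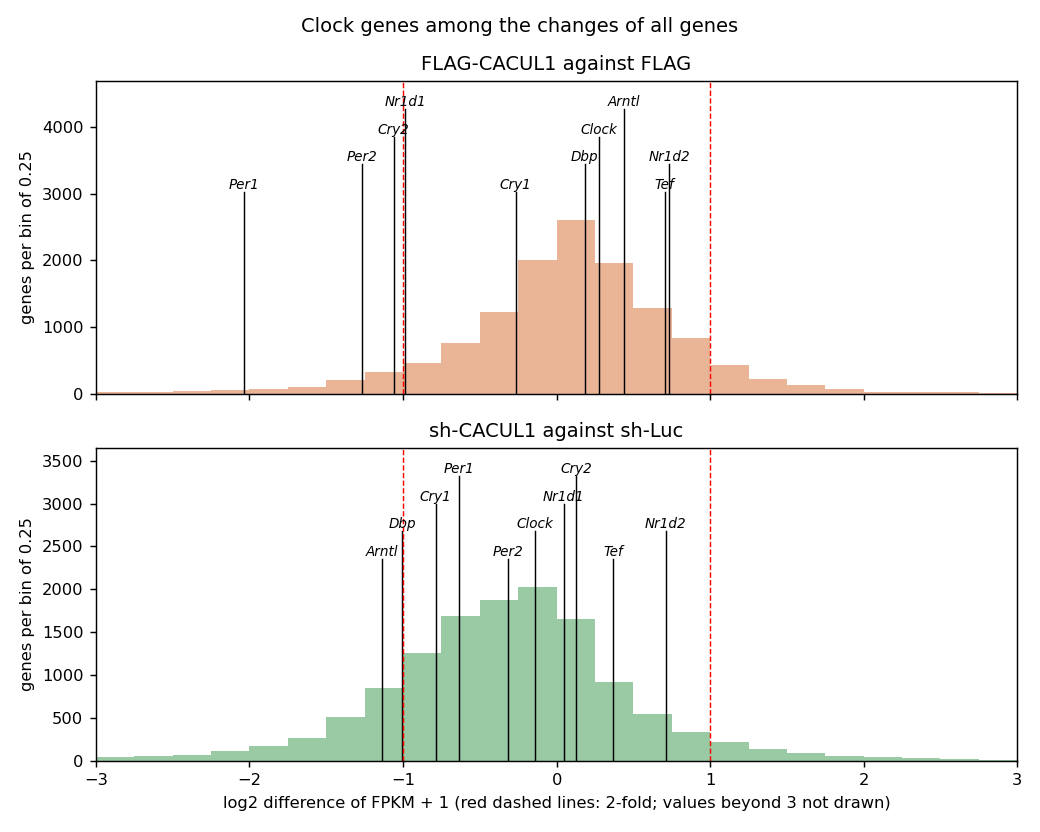
Number of genes (vertical axis) per bin of 0.25 in the log2 difference of FPKM + 1 (horizontal axis) for both comparisons, with a line at each clock gene and red dashed lines at 2-fold; genes beyond 3 on this scale are not drawn. Per1 lies in the lower tail of FLAG-CACUL1 against FLAG at -2.04, while in sh-CACUL1 against sh-Luc all members lie between -1.14 and 0.71.

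The controls were compared with each other because both are meant to hold normal CACUL1. FLAG exceeded sh-Luc at least 2-fold for 2 members and was lower for 0, where 8.58% of all genes were higher, 12.4% lower and 21.0% in either direction. Nr1d1 was 2.89 times as high (interval 2.65 to 3.16; log2 difference 1.46) and Dbp 2.42 times as high (interval 2.13 to 2.74; log2 difference 1.19). Cry2 was at 0.86, Per2 at 0.77, Nr1d2 at 0.28, Cry1 at 0.17 and Per1 at 0.08, while Clock was at -0.61, Tef at -0.51 and Arntl at -0.30. After median-of-ratios scaling Cry2 also passed 2-fold, at 1.12, with Nr1d1 at 1.73 and Dbp at 1.46. Clock, Tef and Arntl were then at -0.36, -0.24 and -0.04. For Nr1d1, Dbp and Clock the gap between the controls was larger in size than either change against the control with the same vector.

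Ratios of genes within a library are not changed by a single scaling factor per library and were used to compare the limbs of the loop. Per1 was 3.15 times Arntl in FLAG, 2.36 times in sh-Luc, 0.474 times in FLAG-CACUL1 and 3.72 times in sh-CACUL1. This ratio was below 1 in FLAG-CACUL1 and above 2 in the other 3 libraries. Per2 to Arntl was 0.734, 0.296, 0.161 and 0.546 in the same order, Cry2 to Arntl was 2.15, 0.892, 0.684 and 2.48, and Cry1 to Arntl was 0.822, 0.567, 0.470 and 0.715. For all 4 repressors the ratio was lowest in FLAG-CACUL1, next in sh-Luc, and higher in FLAG and in sh-CACUL1, although the Cry1 and Arntl levels of FLAG-CACUL1 and sh-Luc each lay within counting error. Nr1d1 to Arntl was 4.81, 1.31, 1.68 and 3.43 and was likewise higher in FLAG and sh-CACUL1, the libraries with the high sums of adipocyte markers. The other ratios to Arntl did not follow this split. Nr1d2 to Arntl was 0.570 in FLAG, below the 0.738 in FLAG-CACUL1, Tef to Arntl was lowest in FLAG, at 1.52, Clock to Arntl was 0.575 in FLAG and 0.750 in sh-Luc, and Dbp to Arntl was highest in both FLAG lines, at 3.04 and 2.46. The part of cell state in the ratios was not tested.

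The pattern depended on Arntl, which is common to these ratios. With Clock as the reference, Per1 was at 5.48 in FLAG, 3.14 in sh-Luc, 0.922 in FLAG-CACUL1 and 2.20 in sh-CACUL1. Per2 was at 1.28, 0.394, 0.312 and 0.323 in that order. FLAG-CACUL1 was again lowest for Per1, but sh-CACUL1 no longer exceeded sh-Luc for Per1 or Per2. The Per2 levels of FLAG-CACUL1 and sh-CACUL1 lay within counting error, so no order is read between these 2 libraries. Cry1 to Clock was lowest in sh-CACUL1, at 0.423, and Cry2 to Clock in sh-Luc, at 1.19. Nr1d1 to Clock was 8.36 in FLAG, 1.75 in sh-Luc, 3.26 in FLAG-CACUL1 and 2.03 in sh-CACUL1. With Clock as the reference, Nr1d1 was thus lower in sh-CACUL1 than in FLAG-CACUL1 and did not follow the adipocyte marker sums. Between the outputs, Tef to Dbp ran from 0.502 in FLAG and 0.741 in FLAG-CACUL1 to 1.77 in sh-Luc and 5.24 in sh-CACUL1. Dbp to Per1 was 5.20 in FLAG-CACUL1, 0.963 in FLAG, 0.421 in sh-Luc and 0.298 in sh-CACUL1, a span of 17.4-fold between the highest and the lowest ratio.

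**Figure D4:**
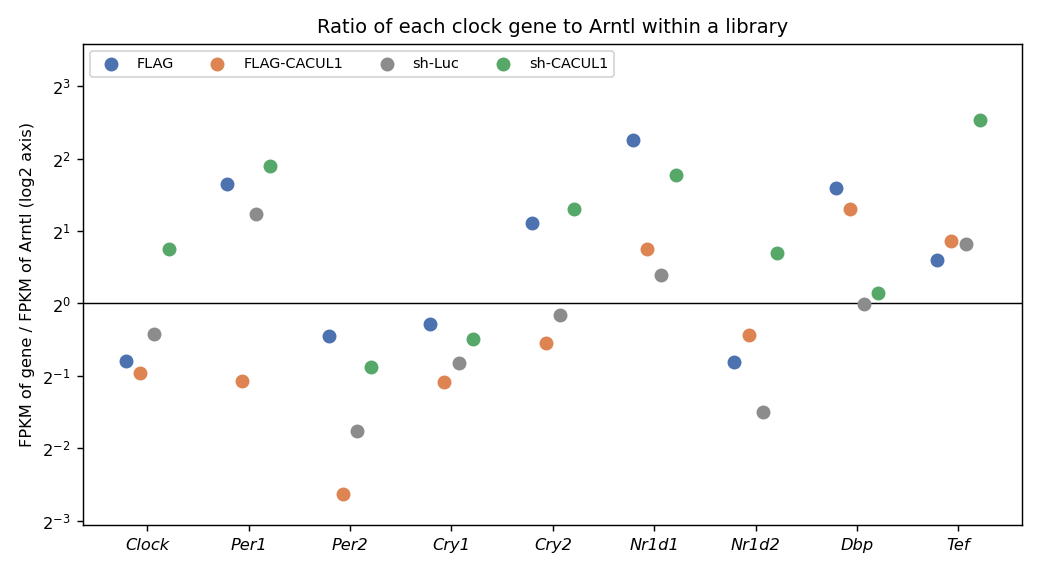
FPKM of each of 9 clock genes divided by FPKM of Arntl in the same library (vertical log2 axis), 1 point per library; the line marks equal levels. Per1, Per2, Cry1 and Cry2 are lowest relative to Arntl in FLAG-CACUL1, where Per1 to Arntl is 0.474 against 3.15 in FLAG.

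Of 20 other genes of the clock pathway, 18 were in the files, and Npas2 and Rorb were not analysed here. With overexpression 5 of the 18 were called lower against FLAG and 0 higher, where 7.22% of all genes were lower and 7.51% higher. The median of the 18 was -0.31 and that of all genes was 0.09. Bhlhe40 and Bhlhe41 encode the DEC repressors that compete for E-boxes, and Ciart (CHRONO) encodes another repressor of the activator dimer. Bhlhe40 had 159.4 FPKM in FLAG, 23.3 in sh-Luc, 51.9 in FLAG-CACUL1 and 14.2 in sh-CACUL1. Bhlhe41 had 22.3, 4.19, 4.49 and 2.85 FPKM and Ciart 16.8, 3.81, 4.79 and 1.505 FPKM in the same order. All 3 were far higher in FLAG than in the other libraries. Their log2 differences from FLAG were -1.60, -2.09 and -1.62 in FLAG-CACUL1.

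Nfil3 encodes a repressor that competes with DBP and TEF for D-boxes. It had 29.3 FPKM in FLAG, 12.5 in sh-Luc, 11.0 in FLAG-CACUL1 and 4.75 in sh-CACUL1. Its log2 difference in FLAG-CACUL1 was -1.34. Nampt, whose product acts in a step toward the NAD that SIRT1 uses, had 83.3, 45.4, 35.9 and 61.1 FPKM, a log2 difference of -1.19. Against sh-Luc 1 of the 18 passed 2-fold in FLAG-CACUL1, Bhlhe40, where 9.90% of all genes passed, and it was higher there by 1.12. Thus 0 of the 5 genes called lower against FLAG were called lower against sh-Luc.

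Knockdown cells had 0 of the 18 genes higher by 2-fold and 2 lower, Nfil3 (log2 difference -1.23) and Rora (log2 difference -1.30). This share, 11.1%, was below that of all genes, of which 16.4% were lower and 4.94% higher. Rora, which encodes RORα, an activator at REV-ERB sites, had 3.66, 4.59, 2.26 and 1.28 FPKM in FLAG, sh-Luc, FLAG-CACUL1 and sh-CACUL1. Both genes were lowest in sh-CACUL1, and 0 of the 18 passed 2-fold after median-of-ratios scaling. The median of the 18 was -0.37 against -0.30 for all genes.

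**Figure D5:**
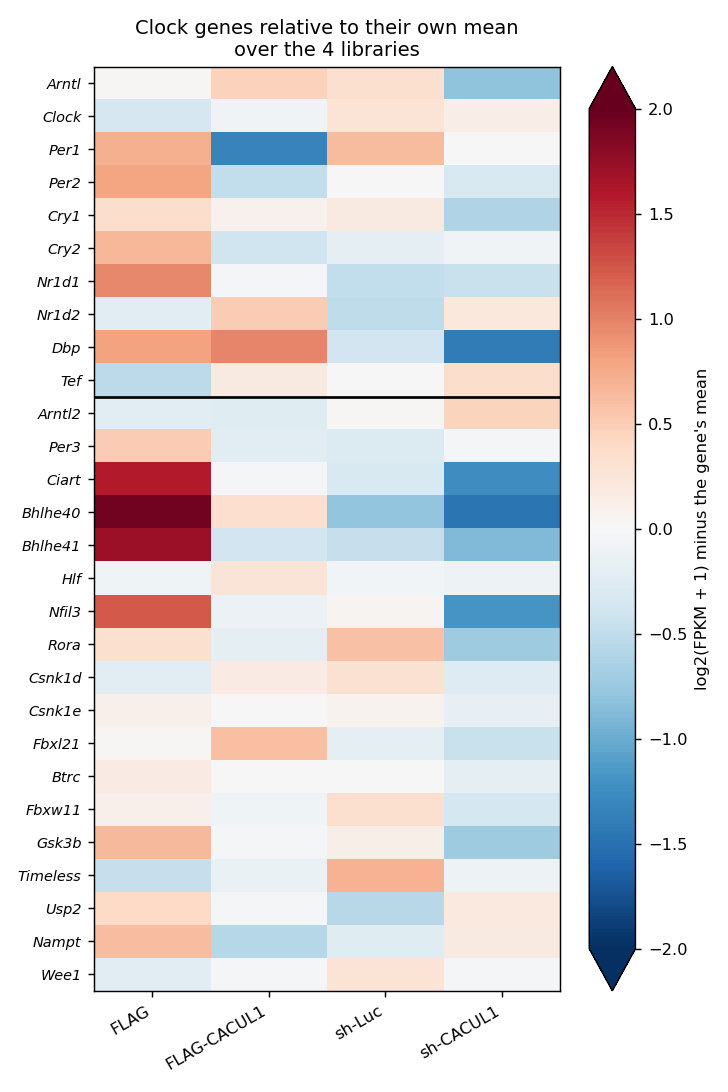
Log2(FPKM + 1) of the 10 clock genes (above the line) and 18 other genes of the clock pathway (below it) in each library, minus the gene's own mean over the 4 libraries; red is above and blue below that mean, and the colour scale ends at 2 in each direction. Ciart, Bhlhe40, Bhlhe41 and Nfil3 are highest in FLAG and lowest in sh-CACUL1.

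The gene with the widest range, Dbp (2.38 on the log2 scale), was compared with all other genes at 1 FPKM or more in each library. By Euclidean distance between profiles over the 4 libraries, each centred on its mean, the 5 nearest of 9553 genes were Selenow (0.12), Osmr (0.14), Rell1 (0.22), Capg (0.22) and Lgals3bp (0.23). Selenow had 203.8 FPKM in FLAG, 85.9 in sh-Luc, 214.7 in FLAG-CACUL1 and 39.2 in sh-CACUL1. Because the genes were picked by this profile, high levels in both FLAG lines and low levels in both hairpin lines follow from the choice. Within a distance of 0.5 there were 44 genes.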

How the data were processed

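Day 8 RNA-seq from 4 stable lines of 3T3-L1 cells, 1 library each, was used. A company prepared and sequenced the libraries for the authors, who deposited FPKM values for 13110 rows of RefSeq transcripts per library. The submitters' processing notes name mm10. The aligner, FPKM program, strand setting and filter are not given in the sources used here.

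Rows were joined to symbols through GENCODE M21 (GRCm38, the build of mm10). Without a symbol were 191 rows, which kept their accessions, 8 rows had several symbols, and rows of a shared symbol were summed (25 genes), which left 13085 genes. Each member was 1 row, of 1 transcript for 6 members and 2 for 4. Changes are log2 differences of FPKM + 1, a pseudocount of 1, called at 2-fold. Each line was set against the control with its vector. No test was run, because there are no replicates.

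Fragments were estimated from the spacing of FPKM times length over rows with a single transcript, with a length minimum of 3000 bases, and the shortest transcript of each row was used. Intervals of folds are Clopper-Pearson, at 95%, on these estimates. The genes named are the 10 members, the other clock genes past 2-fold in a comparison with the same vector, and the 5 nearest in profile to the widest-ranging member. The remaining listed clock genes named at the end were chosen after their values were seen. Some genes of the clock pathway are not reported here and are left out of the counts over the other clock genes. Members and lists were chosen with earlier results of these data known. There were 9 alternatives: pseudocounts of 0.1 and none, a minimum of 1 FPKM, median-of-ratios and quantile scaling, the highest row, the other control, and cut-offs of 3-fold and 1.5-fold. The cut-offs for the comparison of the controls, and the ratios to Clock and between outputs, were added after seeing the data. Scripts were tested on simulated data. Python 3.11.15, numpy 2.4.6, pandas 2.3.3, scipy 1.17.1 and matplotlib 3.10.9 were used.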

Additional observations from a re-analysis of the deposited data

Results flagged for a closer look

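Per1 and Per2 were lower in both perturbed lines, although these move CACUL1 in opposite directions, and at least 1 of the changes of each passed 2-fold. Per1 had a log2 difference of -2.04 in FLAG-CACUL1 against FLAG and -0.64 in sh-CACUL1 against sh-Luc. Per2 had -1.27 and -0.31, respectively. A shared direction was not particular to these genes. Cry1 was also lower in both, at -0.27 and -0.79, while Nr1d2 (0.73 and 0.71) and Tef (0.70 and 0.37) were higher in both. Over all 13085 genes, 5409 were below 0 in FLAG-CACUL1 against FLAG. In sh-CACUL1 against sh-Luc 8987 were, with a median of -0.30, which is close to the value of Per2. After median-of-ratios scaling the values in sh-CACUL1 were -0.19 for Per1 and 0.02 for Per2, so the shared direction of Per2 depended on the scaling. With 1 library per line the difference between the vector systems was not tested.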

How the results depend on the processing

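In FLAG-CACUL1 against FLAG the 3 members past 2-fold became 1 at a cut-off of 3-fold and 6 at 1.5-fold, and the other settings kept the count within 1.5 times. The count hides a change of genes with the other control. There 3 members were again called, but only Per1 was shared, and Dbp and Nr1d2 were higher. The 3 genes called against FLAG all remained called after median-of-ratios scaling, which added Nr1d1. The 5 other clock genes became 3 at 3-fold. With the other control 1 was called, Bhlhe40, which was higher there, so 0 of the 5 were shared. In sh-CACUL1 against sh-Luc the 2 members became 1 after median-of-ratios and after quantile scaling, with 0 of them shared after median-of-ratios scaling, 0 at 3-fold and 5 at 1.5-fold. With the other control 3 members were called, and only Dbp was shared. The median of the members, -0.23, became 0.15 and 0.19 after median-of-ratios and quantile scaling and -0.78 with the other control. The 2 other clock genes became 4 with a pseudocount of 0.1, 6 with none, 0 with either scaling, 6 with the other control, 0 at 3-fold and 8 at 1.5-fold. In FLAG against sh-Luc the 2 members became 3 after median-of-ratios and after quantile scaling, with Cry2 added. They became 0 at 3-fold and 5 at 1.5-fold. Of the recomputed changes of single members, 12, 28 and 19 moved by more than counting error in these comparisons and 58, 42 and 41 did not. The minimum of 1 FPKM and the highest row could not move any member. Each member is 1 row with at least 1 FPKM in every library. These settings are counted among those that did not move, so the counts overstate stability. No member called in the reported setting of a comparison turned its sign in it, while Nr1d1, just short of 2-fold in FLAG-CACUL1 against FLAG, was at 0.47 with the other control. No paired analysis was possible because each line had 1 library, and no library could be left out for the same reason. Depth is an estimate and limits the values of low genes such as Hlf.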

Other observations

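Some listed clock genes were at the edge of detection. Hlf, the third PAR bZIP gene, had 0.304 FPKM in FLAG-CACUL1, an estimated 24 fragments, and 0.0240, 0.0436 and 0.0116 FPKM in FLAG, sh-Luc and sh-CACUL1, an estimated 2, 6 and 1 fragments. Fbxl21 had 1.65 FPKM in FLAG-CACUL1 and 0.777, 0.533 and 0.283 FPKM in FLAG, sh-Luc and sh-CACUL1. Both were thus highest in FLAG-CACUL1. The kinase gene Gsk3b had 26.6, 18.0, 16.1 and 9.74 FPKM in FLAG, sh-Luc, FLAG-CACUL1 and sh-CACUL1, which was high in FLAG and low in sh-CACUL1 as Ciart and Nfil3 were. Over the 18 other clock genes, 10 were highest in FLAG and 12 lowest in sh-CACUL1. Of the genes with at least 1 FPKM in every library, 22.8% were highest in FLAG and 45.1% lowest in sh-CACUL1. The casein kinase genes Csnk1d and Csnk1e, which set the pace of period protein turnover, stayed within 0.55 and 0.27 on the log2(FPKM + 1) scale over the 4 libraries.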
